A study of Mus musculus with 8 samples.

Results

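The genes described here encode the constitutive proteasome: every mouse gene with a Psma, Psmb, Psmc or Psmd symbol that a probe set of the array measured alone, apart from the 3 immune beta forms Psmb8, Psmb9 and Psmb10. The rule gave 35 of the 12393 genes tested. They comprise 15 genes of the 20S core particle, 17 of the 19S regulatory particle and 3 assembly chaperones (Psmd5, Psmd9 and Psmd10) that carry Psmd symbols but are not subunits of the finished particle. All 31 canonical subunits that bear these symbols were among them, together with Psma8, a testis form of an alpha subunit. Psmb11, the thymus form of a beta subunit, was not analysed here. Genes were chosen by symbol and not by a measured value, though earlier results of these data were known. Each was represented by its probe set with the highest mean signal.

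The proteasome is the protease that degrades most ubiquitin-tagged proteins in the cytosol and nucleus. Its barrel-shaped core holds the cutting sites inside beta rings, capped by alpha rings that gate the entrance, and the regulatory particle binds the ubiquitin tag, removes it, unfolds the substrate with a ring of ATPases and feeds it into the core. In skeletal muscle the same machine, served by muscle ubiquitin ligases, degrades contractile proteins during atrophy, and in the clinic drugs that block its core are used against myeloma.

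The study profiled total RNA of mouse soft tissue sarcomas and normal muscle on 8 arrays, 1 sample per array. Sarcomas were raised by injecting an adenovirus that expresses Cre recombinase into mice with conditional alleles of Braf and p53. There were 4 sarcomas of genotype Braf Ca/Ca; p53 Fl/Fl (numbered 1, 2, 3 and 5), 2 of genotype Braf Ca/+; p53 Fl/Fl (numbered 1 and 2), and 1 normal muscle of each genotype taken from a hind limb without a tumour. All mice therefore carried the floxed p53 alleles and at least 1 Braf Ca allele, muscles included. Strain, age, sex and the time from injection are not given in the sources used here, nor is whether a muscle and a sarcoma came from the same mouse. No sorting of cells is described for the tissues.

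Values are log2 signals after robust multi-array averaging (RMA), so a difference of 1 is a doubling. A signal depends on the probes as well as on the RNA, and levels are therefore compared between arrays, gene by gene, and not between genes. The median signal of an array was between 5.79 and 5.90. All 8 of 8 muscle fibre markers fell in the sarcomas, with a median difference of −4.46. Values of the muscles are given for Ca/Ca, then Ca/+. The mean log2 level of the markers was between 7.08 and 9.43 in the sarcomas, against 13.10 and 12.93 in the muscles. Of 7 genes of dividing cells, 6 rose, and their mean level was 7.40 to 9.39 in the sarcomas, against 7.12 and 6.30 in the muscles. Of 8 macrophage markers 1 rose (9.88 to 11.00 in the sarcomas, 10.46 and 9.21 in the muscles), and all 4 of 4 adipocyte markers fell. Every comparison below sets tissues of different cell makeup against each other. Fewer cells of a type and less RNA per cell cannot be told apart in such samples, and the part of these cell types in the proteasome results was not tested.

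The comparison of sarcoma with muscle asks whether proteasome mRNA signals are higher in tumour tissue than in normal muscle from a limb without a tumour. On the scale of the deposited values the constitutive subunits were close to level between the tissues. The median difference of the 35 genes was 0.18 on that scale. It was −0.09 after cyclic loess, −0.16 with ribosomal protein centring and −0.30 with housekeeping centring. Of the 35 genes, 1 rose (Psmd5, a chaperone), 0 fell and 34 did not pass limma's moderated test at an adjusted p of 0.05, on an array where 26.3% of all genes passed (13.1% higher and 13.2% lower). At an unadjusted p below 0.05 there were 12 of 35, against 37.9% of all genes. Among the 31 canonical subunits none passed. On the deposited scale, 30 of them had a 95% interval of the difference that lay wholly within a doubling or a halving. The exception was Psmd7, whose interval reached −1.03. Such an interval was found for 7019 of the 12393 genes, and for 1031 of the 2225 genes with mean signals in the range of the canonical subunits. The median absolute difference of the canonical subunits was 0.24, against 0.37 for all genes. The 2225 genes with mean signals in the same range (8.29 to 11.18) had a median absolute difference of 0.54, and 38.3% of them passed. With the sign kept, their median difference was 0.25, against 0.10 for the canonical subunits.

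**Figure D1:**
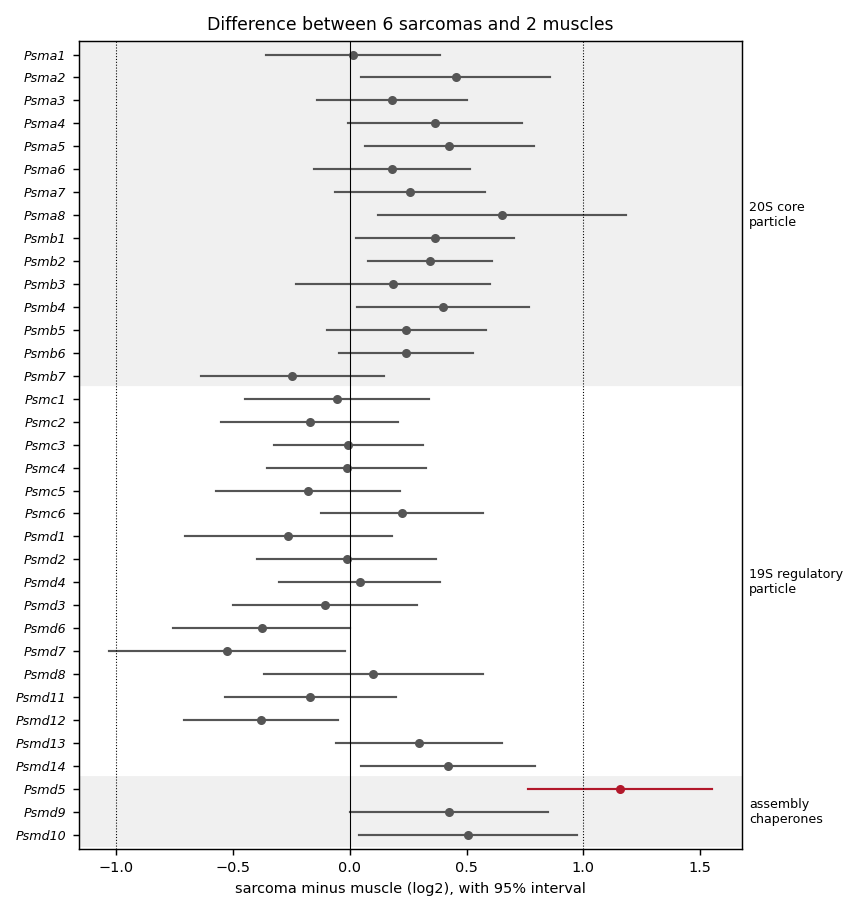
Difference between the 6 sarcomas and the 2 muscles for each of the 35 proteasome genes, on the log2 scale (horizontal axis), ordered by particle from top to bottom; points are the fitted differences, bars their 95% intervals, and dotted lines mark a 2-fold change either way. Psmd5, at 1.16, is the 1 gene that passed the test, and 14 of the 15 core particle genes lie right of 0 on this scale (7 of 15 after cyclic loess) while regulatory particle genes lie on both sides.

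In the core particle, 14 of the 15 genes had a positive difference, where 52.3% of all genes did, but 0 of the 15 passed the test, and the number with a positive difference was 7 after cyclic loess, 7 with ribosomal protein centring and 1 with housekeeping centring. The median difference was 0.26, against 0.03 over all genes. Among the 2225 genes with mean signals in the range of the canonical subunits, the median was 0.25 and 65.4% were positive, so the median of the core was close to that of these genes. With the probe set used for each gene, all 6 sarcomas lay above both muscles for 6 of the 15 (Psma2, Psma5, Psmb1, Psmb2, Psmb4 and Psmb6). That pattern was shown by 20% of all genes. The highest upper bound of any canonical core gene was 0.86, for Psma2, less than a doubling.

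The 3 catalytic beta subunits carry the cutting activities of the core. Psmb5, which cuts after hydrophobic residues (the chymotrypsin-like site, the main target of proteasome inhibitor drugs), had log2 levels of 9.93 to 10.29 in the sarcomas (median 10.16), against 10.02 and 9.75 in the muscles. The difference was 0.24 (SE 0.15, 95% interval −0.10 to 0.58; limma adjusted p = 0.275), and the groups overlapped because Ca/Ca sarcomas 1 and 2 lay below the Ca/Ca muscle. Psmb6, the caspase-like subunit, lay between 9.88 and 10.22 in the sarcomas (median 10.09), against 9.82 and 9.84 in the muscles. Its 6 sarcomas were all above both muscles, by little: the difference was 0.24 (SE 0.12; adjusted p = 0.199). Psmb7, the trypsin-like subunit, went the other way and was the 1 core gene with a negative difference. Its levels were 10.44 to 11.08 in the sarcomas (median 10.71), against 10.95 in each muscle, a difference of −0.24 (SE 0.17; adjusted p = 0.343), with Ca/Ca sarcoma 3 above the muscles and the other 5 sarcomas below them. After cyclic loess it passed, at −0.52 (adjusted p = 0.0466).

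Psmb5 and Psmb6 are shown with their promoters because their start regions hold the core of the antioxidant response element, the site bound by the factors NRF1 and NRF2 described below. Windows of 300 bases, 250 before to 50 after each gene's start, were taken from RefSeq (GRCm38.p6), and the 250 bases before the start are printed 5′ to 3′ on the gene's own strand. These are chr14:54617996-54618245 on the minus strand for Psmb5 and chr11:70525107-70525356 on the plus strand for Psmb6. Capitals mark the matches to TGACNNNGC, which begin 47 bases before the start of Psmb5 and 9 bases before that of Psmb6.
Psmb5: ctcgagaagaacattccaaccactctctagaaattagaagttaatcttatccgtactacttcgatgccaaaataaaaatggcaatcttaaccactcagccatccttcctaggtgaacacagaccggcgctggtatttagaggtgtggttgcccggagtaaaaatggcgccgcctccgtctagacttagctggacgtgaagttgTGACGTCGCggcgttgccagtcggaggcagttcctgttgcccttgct
Psmb6: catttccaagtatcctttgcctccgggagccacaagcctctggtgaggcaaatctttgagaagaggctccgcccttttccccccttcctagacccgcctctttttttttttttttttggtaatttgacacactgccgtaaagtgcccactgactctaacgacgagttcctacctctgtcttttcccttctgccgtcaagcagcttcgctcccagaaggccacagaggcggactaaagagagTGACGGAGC

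Of the remaining beta subunits, Psmb2 was the core gene nearest to the threshold. It had 9.65 to 9.93 in the sarcomas (median 9.75), against 9.40 and 9.43 in the muscles, with no overlap, and a difference of 0.35 (SE 0.12; adjusted p = 0.0592). It passed with array weights (adjusted p = 0.0396), while after cyclic loess the difference was 0.089 (adjusted p = 0.597). Psmb4 differed by 0.40 (adjusted p = 0.106), with 10.90 to 11.31 in the sarcomas against 10.77 and 10.74 in the muscles. A second probe set of Psmb4, with a mean signal of 9.30, gave 0.06, and its sarcomas and muscles overlapped. In the alpha ring the differences of the 8 genes ran between 0.01 for Psma1 and 0.65 for Psma8, with a median of 0.31.

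The largest positive differences in the core were those of Psma8 and Psma2. Psma8, normally made in male germ cells, had 3.65 to 4.34 in the sarcomas (median 4.04), against 3.74 and 3.07 in the muscles. The groups overlapped, every value lay below the first quartile of all gene means (4.40), and Psma8 differed by 0.65 (SE 0.23; adjusted p = 0.0715), short of the threshold. It passed without Ca/Ca sarcoma 5 (0.73; adjusted p = 0.0350) or without the Ca/Ca muscle (0.99; adjusted p = 0.0410). Without the Ca/+ muscle it was 0.32 (adjusted p = 0.544). Psma2, a subunit of the gated alpha ring, had 10.53 to 11.13 in the sarcomas (median 10.69), against 10.32 in each muscle. All 6 sarcomas were above both muscles, and the difference was 0.45 (SE 0.18, 95% interval 0.05 to 0.86; adjusted p = 0.0946). Psma5 was similar, at 9.84 to 10.35 in the sarcomas against 9.63 in each muscle, a difference of 0.43 (adjusted p = 0.0812).

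**Figure D2:**
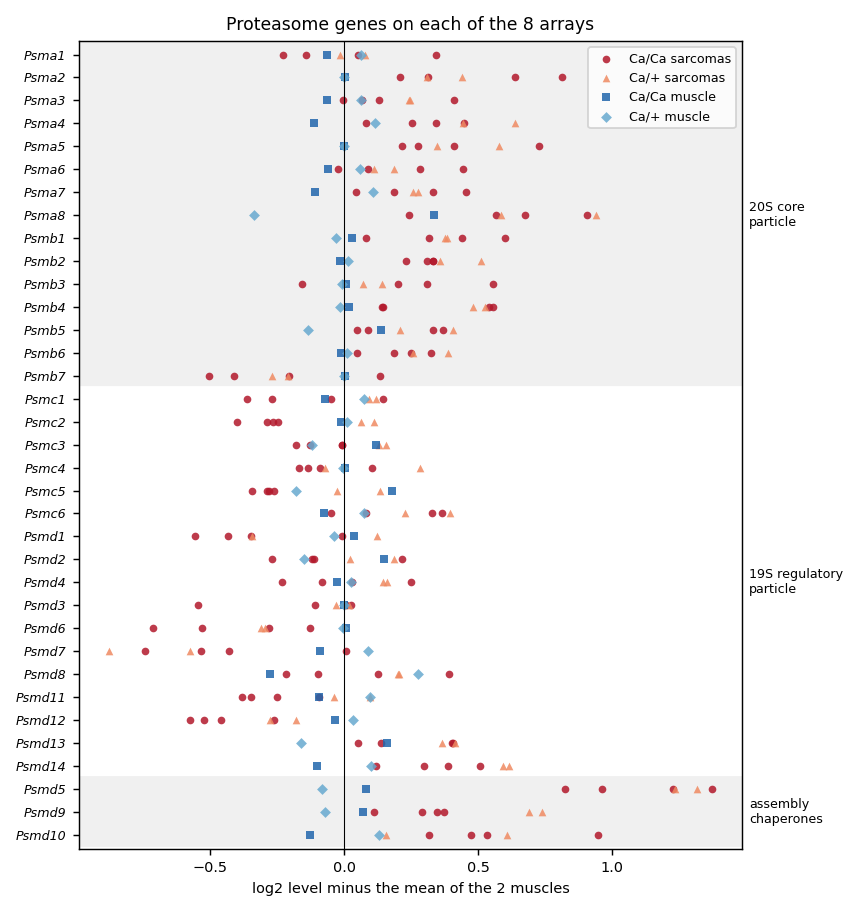
Log2 level of each of the 35 proteasome genes on each array, minus the mean of the 2 muscles (horizontal axis); symbols stand for the 4 Ca/Ca sarcomas, the 2 Ca/+ sarcomas and the muscle of each genotype. The sarcomas of most genes straddle or sit close to the muscles, and in no other row do all 6 lie as far to the right as in that of Psmd5.

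In the regulatory particle 0 of the 17 genes passed the test, 5 had a positive difference (2 after cyclic loess, 1 with ribosomal protein centring and 0 with housekeeping centring), and the median difference was −0.05. The count depended on single arrays: it was 9 of 17 without Ca/Ca sarcoma 1, 8 without Ca/Ca sarcoma 2 and 10 with the Ca/+ arrays alone. All 6 sarcomas lay above both muscles for 1 of the 17 genes and below both for 2, patterns that 20% and 19% of all genes showed. The 19S base holds the ATPase ring that unfolds substrates. None of its 9 genes passed the test, 2 had a positive difference, and the median was −0.01. The 6 ATPases Psmc1 to Psmc6 had a median of −0.03. Psmc4, an ATPase of the ring, had 8.29 to 8.74 in the sarcomas (median 8.38), against 8.46 in each muscle. The muscles fell inside the range of the sarcomas, and the difference was −0.01 (SE 0.15; adjusted p = 0.962). Psmc6 had the largest positive difference of the base: its levels were 9.52 to 9.97 in the sarcomas (median 9.85), against 9.50 and 9.65 in the muscles, a difference of 0.22 (SE 0.15; adjusted p = 0.327). Its 2 dimmer probe sets gave −0.47 and −0.33, so the probe sets of Psmc6 disagreed on its direction.

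Among the base subunits that are not ATPases, Psmd4 is a ubiquitin receptor and Psmd1 and Psmd2 are large scaffold subunits. Psmd4 had 10.17 to 10.65 in the sarcomas (median 10.49), against 10.38 and 10.43 in the muscles, and differed by 0.04 (SE 0.15; adjusted p = 0.867). Its other probe sets gave −0.23 and −0.06. Psmd1 had the lowest difference of the base, −0.26 (SE 0.19; adjusted p = 0.371), with 8.67 to 9.35 in the sarcomas (median 8.88), against 9.27 and 9.19 in the muscles. Ca/+ sarcoma 1 was above both muscles and 4 of the other sarcomas were below both.

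The lid removes ubiquitin chains before the substrate enters the core. Its 8 genes went in both directions: 3 were positive, 5 negative, and the median was −0.14, with 0 past the test. Psmd14, the deubiquitinase of the lid, had 10.09 to 10.58 in the sarcomas (median 10.41), against 9.86 and 10.07 in the muscles. It was the 1 gene of the regulatory particle with every sarcoma above both muscles, and its difference was 0.42 (SE 0.16, 95% interval 0.05 to 0.79; adjusted p = 0.0923). Psmd7, the inactive partner of Psmd14 in the same enzyme pair, had the most negative difference of all 35 genes. Its levels were 8.10 to 8.99 in the sarcomas (median 8.42), against 8.89 and 9.07 in the muscles, a difference of −0.52 (SE 0.22; adjusted p = 0.119), with Ca/Ca sarcoma 5 between the muscles and the other 5 sarcomas below both. Without that sarcoma Psmd7 passed, at −0.63 (adjusted p = 0.0218).

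Psmd13, a structural lid subunit, had 8.12 to 8.48 in the sarcomas (median 8.46), against 8.23 and 7.91 in the muscles, a difference of 0.30 (SE 0.16; adjusted p = 0.206). Psmd6 and Psmd12, also structural subunits of the lid, were the only 2 of the 35 genes with all 6 sarcomas below both muscles, where 19% of all genes showed that pattern. Psmd6 had 9.64 to 10.22 in the sarcomas against 10.35 and 10.34 in the muscles (difference −0.38; adjusted p = 0.134). Psmd12 had 9.27 to 9.66 in the sarcomas against 9.81 and 9.88 in the muscles (difference −0.38; adjusted p = 0.0868). These calls depend on the scaling: after cyclic loess Psmd6 was −0.64 (limma adjusted p = 0.0180), Psmd7 −0.75 (0.0473) and Psmd12 −0.63 (0.00884), and all 3 passed as lower in the sarcomas there and with both centrings.

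The 3 chaperones escort the ATPases while the base is put together. All 3 lay higher in every sarcoma than in either muscle, as 20% of all genes did, and 1 of them, Psmd5, passed the test, where 13.1% of all genes passed as higher. Psmd5 (known as S5b, which binds the ATPase Psmc2 and has also been described as an inhibitor of 26S assembly) had 8.18, 8.04, 8.59 and 8.45 in Ca/Ca sarcomas 1, 2, 3 and 5 and 8.54 and 8.45 in the Ca/+ sarcomas, against 7.30 and 7.14 in the muscles. The lowest sarcoma was well above the higher muscle. The means were 8.37 ± 0.22 in the sarcomas (SD, n = 6) and 7.22 ± 0.12 in the muscles (SD, n = 2), a difference of 1.16 (SE 0.17, 95% interval 0.76 to 1.55) or 2.23-fold, with a limma adjusted p of 0.00221. An adjusted p under the threshold with at least a doubling was met by 6.08% of all genes. The difference was 1.07 to 1.24 with any 1 array left out and passed each time. With the Ca/Ca arrays alone, 4 sarcomas against 1 muscle, it was 1.01 and did not pass (adjusted p = 0.112). A single probe set measured Psmd5.

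Psmd10 (gankyrin, a chaperone also described as an oncoprotein) had 6.79 to 7.58 in the sarcomas (median 7.14), against 6.50 and 6.76 in the muscles. Its difference was 0.51 (SE 0.20, 95% interval 0.04 to 0.97; adjusted p = 0.105), and Ca/+ sarcoma 1 lay almost level with the Ca/+ muscle. Psmd9 had 6.92 to 7.55 in the sarcomas (median 7.17), against 6.88 and 6.74 in the muscles, a difference of 0.43 (SE 0.18; adjusted p = 0.130). A second, dim probe set of Psmd9 gave −0.24. Neither of these 2 chaperones passed, and they are given as values.

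The promoter of Psmd5 is printed because it belongs to the 1 gene that passed, and that of Psmd9 because it is the 1 chaperone promoter with an antioxidant response element core. The printed bases are chr2:34870963-34871212 on the minus strand for Psmd5 and chr5:123227940-123228189 on the plus strand for Psmd9 (RefSeq, GRCm38.p6). In Psmd5 the capitals mark a palindrome, TCTCGCGAGA, which was searched for after the sequence had been seen. It was picked as the longest self-complementary run that occurs at least 2 times in the Psmd5 window. Its copies begin 72 and 26 bases before the start. Of 32851 mouse promoters of this length 153 (0.466%) held that palindrome and 11 (0.0335%) held at least 2 copies. Because the palindrome was picked for its copies in Psmd5, these shares do not measure how unusual that promoter is. In Psmd9 the capitals mark TGACNNNGC, beginning 31 bases before the start.
Psmd5: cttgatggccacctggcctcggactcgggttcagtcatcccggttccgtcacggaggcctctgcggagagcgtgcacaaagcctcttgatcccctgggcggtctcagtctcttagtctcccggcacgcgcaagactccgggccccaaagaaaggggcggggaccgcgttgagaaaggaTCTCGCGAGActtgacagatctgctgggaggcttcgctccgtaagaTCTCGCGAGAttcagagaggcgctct
Psmd9: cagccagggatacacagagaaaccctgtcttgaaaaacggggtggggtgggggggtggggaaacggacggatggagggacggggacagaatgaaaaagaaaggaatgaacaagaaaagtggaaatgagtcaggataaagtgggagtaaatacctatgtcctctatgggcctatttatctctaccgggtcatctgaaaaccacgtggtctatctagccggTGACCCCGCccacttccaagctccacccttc

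Promoter windows were found for 28 of the 35 genes, 30 windows in all, and searched on both strands. TGACNNNGC was present in 5 of the 30 (16.7%), against 12.4% of all promoters. The holders were Psmb5, Psmb6, Psmc6, Psmd9 and Psmd12, whose differences ran between −0.38 and 0.43. CCAAT, the box bound by the factor NF-Y, was in 11 of 30 (36.7%), against 37.4% of all promoters. It was in 6 of the 12 core particle windows (50%) and in 4 of the 15 regulatory particle windows (26.7%). No window held both motifs, so no matches overlapped. A match describes the sequence and is not a binding site.

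The medians of core and regulatory particle genes sat apart on every sarcoma array, while the genes themselves overlapped. In Ca/Ca sarcoma 1, core genes ran from −0.51 to 0.57 and regulatory genes from −0.71 to 0.30, relative to the mean of the muscles. Relative to the mean of the muscles, the median of the 15 core genes was 0.09, 0.21, 0.45 and 0.23 in Ca/Ca sarcomas 1, 2, 3 and 5 and 0.35 and 0.26 in the Ca/+ sarcomas. The median of the 17 regulatory genes was −0.23, −0.13, −0.13 and 0.03 in the Ca/Ca sarcomas and 0.12 and 0.11 in the Ca/+ sarcomas. The core median was thus the higher on each of the 6 sarcoma arrays, by 0.15 to 0.57. The median of the core differences exceeded that of the regulatory differences by 0.31, and by 0.24 to 0.44 under the alternative settings tried. This gap is a description over genes and carries no test. All 6 sarcoma arrays were set against the same muscle mean, so their agreement is not independent. A constant added to every gene of an array does not move it.

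**Figure D3:**
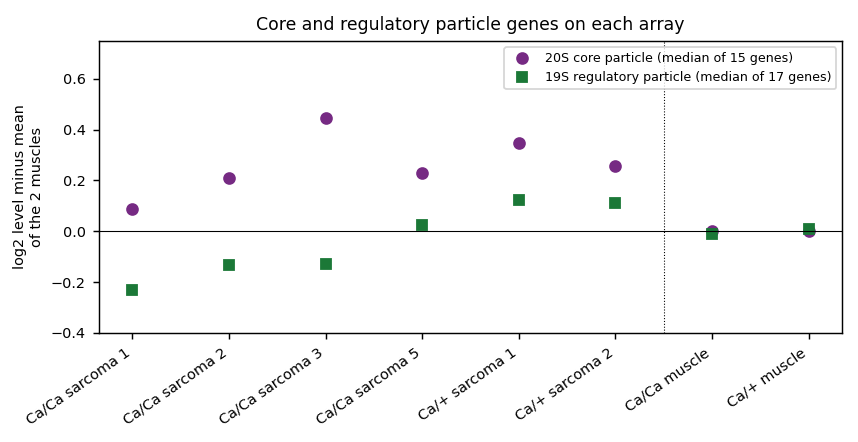
Median log2 level of the 15 core particle genes (circles) and the 17 regulatory particle genes (squares) on each array, minus the mean of the 2 muscles (vertical axis). Each sarcoma array has its circle above its square, by 0.15 in Ca/+ sarcoma 2 and 0.57 in Ca/Ca sarcoma 3, and on the muscle arrays the pair lies at about 0.

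The sarcomas were not ranked alike by the particles. Ca/Ca sarcoma 3 was the highest of the 6 sarcomas for 9 of the 15 core genes and for 1 of the 17 regulatory genes. Ca/Ca sarcoma 5 was the highest for 6 regulatory genes and 1 core gene, and the lowest for 6 core genes and no regulatory gene. Ca/Ca sarcoma 1 was the highest for none of the 32 genes, and the lowest for 6 core genes and 7 regulatory genes. Among regulatory genes Ca/Ca sarcoma 3 was the lowest for 5 of the 17, and the 1 for which it was the highest was Psmd6. Psmd3, a lid subunit, was 8.13 in Ca/Ca sarcoma 3, against 8.56 to 8.70 in the other sarcomas and 8.67 in each muscle.

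Subunit levels varied little between tumours. The SD over the 6 sarcomas was 0.19 at the median of the 31 canonical subunits (0.09 for the least and 0.31 for the most variable), 0.24 over all genes and 0.26 over the 2225 genes with similar mean signals. The immune forms Psmb8, Psmb9 and Psmb10 spread much more widely. In the immunoproteasome, which interferon induces and white blood cells carry, Psmb8 replaces Psmb5, Psmb9 replaces Psmb6 and Psmb10 replaces Psmb7. Psmb8 had 10.18, 9.78, 9.34 and 6.88 in Ca/Ca sarcomas 1, 2, 3 and 5 and 8.09 and 10.17 in the Ca/+ sarcomas, against 9.05 and 8.83 in the muscles. The 4 sarcomas with the higher values were above both muscles, and Ca/Ca sarcoma 5 and Ca/+ sarcoma 1 were below both. Psmb9 and Psmb10 separated the same sarcomas in the same way. Marker levels of lymphocytes, macrophages and endothelium were lowest in the same sarcomas. In the fibroblast, adipocyte, muscle fibre and dividing cell lists another sarcoma lay below at least 1 of them. For adipocytes Ca/Ca sarcoma 1 had 5.86 and Ca/+ sarcoma 1 had 6.79, and for muscle fibres Ca/Ca sarcoma 1 had 8.45 and Ca/Ca sarcoma 5 had 8.88. The mean of 4 lymphocyte markers was lowest in Ca/Ca sarcoma 5 and Ca/+ sarcoma 1 (4.61 and 5.06, against 6.15 to 7.43 in the other sarcomas and 6.29 and 7.54 in the muscles). So were 8 macrophage markers (9.88 and 10.36, against 10.65 to 11.00 in the other sarcomas) and 5 endothelium markers (6.05 and 5.90, against 6.81 to 7.03 in the other sarcomas). Their part in the spread of the immune forms was not tested. The SD over the sarcomas was 1.09 to 1.41 for the 3 immune forms, and their differences from muscle of 0.13, 0.21 and 0.35 did not pass (adjusted p = 0.928, 0.893 and 0.755).

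**Figure D4:**
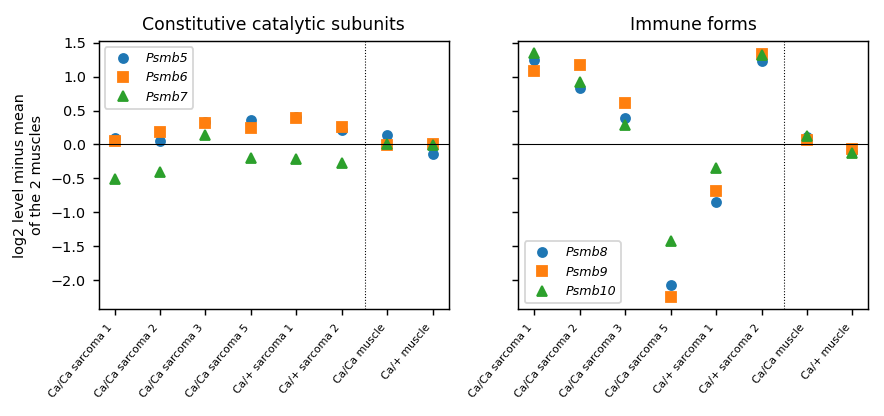
Log2 level minus the mean of the 2 muscles (vertical axis) on each array for the constitutive catalytic subunits Psmb5, Psmb6 and Psmb7 (left) and the immune forms Psmb8, Psmb9 and Psmb10 (right). The immune forms lie below 0 in Ca/Ca sarcoma 5 and Ca/+ sarcoma 1 and above 0 in the other sarcomas, over a wider range than the constitutive subunits, of which Psmb7 lies below 0 in 5 of the 6 sarcomas.

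A list of 38 genes that assemble, activate, supply or regulate the proteasome had 26 measured members, of which 2 rose, 3 fell and 21 did not pass, where 26.3% of all genes passed. Among the 4 measured regulators, 1 rose and 2 fell. Nfe2l1 encodes NRF1, the transcription factor that raises proteasome genes when proteasome activity is short, and Ngly1 encodes the enzyme that strips sugars from NRF1 and so lets it mature. Both fell. Nfe2l1 had 8.46 to 9.39 in the sarcomas (median 8.94), against 9.84 and 9.76 in the muscles, a difference of −0.86 (SE 0.21; adjusted p = 0.0192). Without the Ca/Ca or the Ca/+ muscle it did not pass (adjusted p = 0.103 and 0.114). Ngly1 had 7.47 to 7.93 in the sarcomas (median 7.76), against 8.36 and 8.62 in the muscles, a difference of −0.76 (SE 0.16; adjusted p = 0.0103), and did not pass without the Ca/+ muscle (adjusted p = 0.123). For both genes every sarcoma was below both muscles.

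Nfe2l2, which encodes NRF2, the antioxidant response factor that can also raise proteasome genes, rose at the edge of the threshold. It had 9.37 to 10.24 in the sarcomas (median 9.76), against 9.20 and 8.93 in the muscles, a difference of 0.71 (SE 0.22; adjusted p = 0.0488). Leaving out any 1 of 6 arrays raised its adjusted p above 0.05 (0.0601 to 0.313). Psmg3, a chaperone of core assembly, had 7.43 to 8.20 in the sarcomas (median 7.90), against 7.22 and 7.27 in the muscles, and rose by 0.63 (SE 0.19; adjusted p = 0.0407). It passed with Ca/Ca sarcoma 5 left out, and with none of the other 7 arrays left out (adjusted p = 0.0591 to 0.183). Neither Nfe2l2 nor Psmg3 passed after cyclic loess (adjusted p = 0.177 and 0.115) or with either centring, whereas Nfe2l1 and Ngly1 passed under all of these. Pomp, which matures the core, differed by 0.21 (adjusted p = 0.438).

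Fbxo32 (atrogin-1, the ubiquitin ligase of muscle atrophy) fell by far more than any other gene of the list. It had 6.09 to 8.85 in the sarcomas (median 7.20), against 11.24 and 11.09 in the muscles, a difference of −3.94 (SE 0.63; adjusted p = 0.00294). With the Ca/Ca arrays alone it was −3.53 and did not pass (adjusted p = 0.0588). That is of the size of the muscle fibre markers, whose median was −4.46. Among the alternative caps of the core, Psme4 (the activator PA200) differed by −0.46 (SE 0.45; adjusted p = 0.503), with 10.35 in Ca/Ca sarcoma 5 and 8.45 to 8.84 in the other sarcomas, against 9.41 and 9.43 in the muscles. Without Ca/Ca sarcoma 5 the difference was −0.74 (adjusted p = 0.00737). Psmf1, an inhibitor of the core, differed by 0.35 (adjusted p = 0.256). Trim63 (MuRF1), the other classic ligase of atrophy, was not analysed here.

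**Figure D5:**
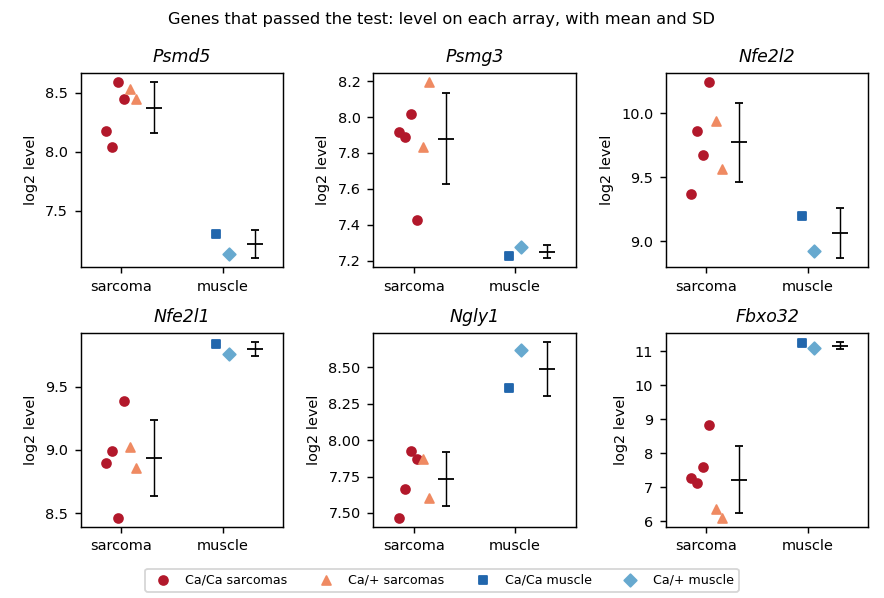
Log2 level on each array (vertical axis) for the genes that passed the test: Psmd5 among the 35 proteasome genes, and Psmg3, Nfe2l2, Nfe2l1, Ngly1 and Fbxo32 of the pathway list, sarcomas left of muscles, with the mean and SD beside the points. In all 6 panels the sarcomas and the muscles do not overlap, and the gap is widest for Fbxo32.

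The sarcomas of the 2 Braf genotypes were compared to ask whether a second Ca allele goes with a different level of proteasome mRNA. None of the 35 genes passed, and none of the 12393 genes did (0%) by limma; at an unadjusted p below 0.05 there were 3 of 35 and 7.84% of all genes. The differences leaned to lower values in Ca/Ca tumours, being negative for 30 of 35 genes with a median of −0.15, where 50.1% of all genes were negative. The share of negative differences among genes of similar mean signal, and under other scalings, is not given here. The mean level of the 7 genes of dividing cells was 7.40 to 8.86 in the Ca/Ca sarcomas, against 9.20 and 9.39 in the Ca/+ sarcomas. Its part in this lean was not tested. Psmd9 had the smallest p: its mean was 7.09 ± 0.12 in the 4 Ca/Ca sarcomas and 7.52 ± 0.03 in the 2 Ca/+ sarcomas (SD), a difference of −0.43 (SE 0.13, 95% interval −0.76 to −0.11; adjusted p = 0.618). Psmc2, an ATPase, had 10.10, 9.95, 10.08 and 10.06 in the Ca/Ca sarcomas and 10.41 and 10.46 in the Ca/+ sarcomas. The groups did not overlap, and the difference was −0.39 (SE 0.12, 95% interval −0.68 to −0.09; adjusted p = 0.618). Psmd5 had 8.31 ± 0.25 in Ca/Ca and 8.49 ± 0.06 in Ca/+ sarcomas (SD), a difference of −0.18 (95% interval −0.64 to 0.28; limma adjusted p = 0.807). With 2 Ca/+ sarcomas, a difference of the size seen here could not be separated from the spread between tumours.

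The size and, for small differences, the sign of these results depend on how arrays are put on a common scale. RMA gives the arrays the same distribution, so a shift in total mRNA would not show. When arrays were centred on 9 housekeeping genes, of which 5 rose and 1 fell, the median of all genes moved by −0.48, and when they were centred on 32 ribosomal protein genes it moved by −0.34. The proteasome median was then −0.30 and −0.16. Both centrings add 1 constant to an array, so the proteasome median less that of all genes is fixed at 0.16 by construction; after cyclic loess it was −0.10. The split of all genes called higher and lower was 1626 and 1630 as deposited, 1157 and 1830 after cyclic loess, 555 and 4496 with housekeeping centring, and 567 and 3265 with ribosomal centring. Psmd5 passed under each of these scalings, with 0.68 to 1.15.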

How the data were processed

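The deposited values are log2 signals per probe set that the authors computed with RMA, per the submitters' processing notes (version, array scan dates and genome build are not given in the sources used here); RMA gives arrays the same distribution. All 8 arrays were used, 6 sarcomas and 2 muscles, and no 2 arrays shared more than 32 equal values. Of 22690 probe sets, 64 were controls, 20380 named 1 gene symbol in the platform annotation, 691 several and 1555 were not listed. Each gene was represented by the single-symbol probe set with the highest mean over the 8 arrays, 12393 genes in all. The 35 proteasome genes had 64 probe sets, 17 genes having several, and all 35 matched a RefSeq symbol.

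Sarcomas were compared with muscles, and Ca/Ca with Ca/+ sarcomas, by lmFit and eBayes of limma 3.58.1 in R 4.3.3 with no covariate, and p-values were adjusted by Benjamini-Hochberg over all 12393 genes, with a threshold of 0.05. The script was tested on simulated data. Nothing says that sarcomas of a group came from separate mice, so p-values measure the spread between samples; the number of arrays limits the precision. Alternatives were other scalings, probe set averaging, filters on dim genes, array weights, a trended robust prior, genotype as covariate, 1 genotype at a time, each array left out, and tumour number as a block. Genes given in full were the catalytic subunits, the extremes of core, base and lid, Psmc4, the chaperones, Psma8 and whatever passed, plus values near a threshold or for members without overlap, picked after their values were seen. The members and the gene lists were chosen with earlier results of these data known. Figures used matplotlib 3.10.9 in Python 3.11.15.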

Additional observations from a re-analysis of the deposited data

Results flagged for a closer look

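In 43 genes, the 35 proteasome genes among them, 86 groups of samples were searched for a sample far from the rest. Such a sample was found in 3, no more than the share of about 1 in 20 that chance gives. The groups overlapped, since the Ca/Ca sarcomas were searched alone and among all sarcomas. The value of Psme4 in Ca/Ca sarcoma 5 was counted in both. Psmd3, a lid subunit, was 8.13 (log2) in Ca/Ca sarcoma 3, against 8.56 to 8.70 in the other 5 sarcomas. Psme4, the activator PA200, was 10.35 in Ca/Ca sarcoma 5, against 8.45 to 8.84 in the other 5 sarcomas and 8.45 to 8.71 in the other Ca/Ca sarcomas.

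In 4 of the 43 genes every sarcoma of a genotype lay on one side of the muscle of that genotype. Every sarcoma of the other genotype lay on the opposite side of its own muscle. The share of all genes with this pattern was not counted. The ATPase Psmc2 differed from its own muscle by −0.29 in the Ca/Ca sarcomas and by 0.08 in the Ca/+ sarcomas. The ATPase Psmc3 differed by −0.20 in the Ca/Ca and by 0.26 in the Ca/+ sarcomas. The ATPase Psmc5 differed by −0.47 in the Ca/Ca and by 0.23 in the Ca/+ sarcomas. The lid subunit Psmd8 differed by 0.33 in the Ca/Ca and by −0.07 in the Ca/+ sarcomas. Each value rests on 1 muscle, and these differences between genotypes were not tested. The Ca/Ca muscle minus the Ca/+ muscle was −0.02 for Psmc2, 0.24 for Psmc3, 0.36 for Psmc5 and −0.55 for Psmd8.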

How the results depend on the processing

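With 2 muscles and 2 Ca/+ sarcomas the design limits what can be called, and every fold rests on RMA's assumption of equal distributions; the causes of the changes below were not tested unless named. Psmd5 kept its direction under all alternatives and its call under all but the Ca/Ca arrays alone (fewer samples). The number of proteasome genes called higher (1) was 2 with the mean of a gene's probe sets (Psmb2 has 1 probe set, and its value did not change), 2 with genotype as covariate, 3 with array weights, 0 with Ca/Ca arrays alone and 1 to 2 with an array left out. The number called lower (0) was 4 after cyclic loess (Psmb7, Psmd6, Psmd7 and Psmd12), 4 with ribosomal protein centring, 11 with housekeeping centring, 1 with array weights and 0 to 1 with an array left out. Core genes called higher (0) were 1 with the mean of probe sets, 2 with array weights and 0 to 1 with an array left out; regulatory genes called higher (0) were 1 with genotype as covariate. Pathway genes called higher (2) were 0 after cyclic loess, housekeeping or ribosomal centring and within either genotype alone, 1 with median centring, the trended robust prior or genotype as covariate, and 0 to 2 with an array left out. Pathway genes called lower (3) were 9 with housekeeping centring, 0 with Ca/Ca arrays alone, 1 with Ca/+ arrays alone and 1 to 5 with an array left out.

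The median difference of the 35 genes turned to −0.091 after cyclic loess, −0.30 with housekeeping centring and −0.16 with ribosomal centring. Uncalled differences of single genes (log2, sarcoma minus muscle) that changed sign were, with Ca/+ arrays alone, Psma1 −0.032, Psmc1 0.033, Psmc2 0.077, Psmc3 0.26, Psmc4 0.11, Psmc5 0.23, Psmd2 0.25 and Psmd8 −0.074. They were, with array weights, Psma1 −0.052, and, with genotype as covariate, Psmc3 0.010 and Psmc4 0.0081. After cyclic loess they were Pomp −0.048, Psma1 −0.24, Psma3 −0.11, Psma6 −0.091, Psma7 −0.0072, Psmb3 −0.088, Psmb5 −0.022, Psmb6 −0.023, Psmc6 −0.034, Psmd4 −0.23 and Psmd8 −0.16. Housekeeping centring gave Pomp −0.27, Psma1 −0.47, Psma2 −0.027, Psma3 −0.30, Psma4 −0.11, Psma5 −0.054, Psma6 −0.30, Psma7 −0.22, Psmb1 −0.11, Psmb2 −0.13, Psmb3 −0.29, Psmb4 −0.081, Psmb5 −0.24, Psmb6 −0.24, Psmc6 −0.26, Psmd13 −0.18, Psmd14 −0.059, Psmd4 −0.44, Psmd8 −0.38, Psmd9 −0.054 and Psmf1 −0.13. Ribosomal centring gave Pomp −0.12, Psma1 −0.32, Psma3 −0.16, Psma6 −0.16, Psma7 −0.081, Psmb3 −0.15, Psmb5 −0.096, Psmb6 −0.097, Psmc6 −0.11, Psmd13 −0.042, Psmd4 −0.29 and Psmd8 −0.24. The mean of probe sets gave Psma1 −0.14, Psmc1 0.035, Psmc4 0.066, Psmc6 −0.19 and Psmd4 −0.080. With an array left out the values lay for Psma1 between −0.051 and 0.078, Psmc1 between −0.13 and 0.019, Psmc3 between −0.12 and 0.11, Psmc4 between −0.072 and 0.018, Psmc5 between −0.36 and 0.00045, Psmd2 between −0.16 and 0.14, Psmd8 between −0.17 and 0.38.

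The gap between core and regulatory medians, 0.31, was added after seeing the data and kept its direction throughout (0.24 to 0.44). In the genotype comparison some tumour numbers are shared by the groups, and the labels do not say whether they pair samples. The deviations of the same-numbered samples correlated at −0.19 for number 1 and 0.29 for number 2. With only 2 Ca/+ sarcomas, their deviations mirror each other, so these correlations cannot show whether the numbers pair samples. With tumour number as a replicate block 0 genes of the 35 passed, as without it, and Psmd9 was −0.49 and Psmc2 −0.41 (limma adjusted p = 0.711 for both). Of the other probe sets of these genes, 29 in all, 19 were above the first quartile of gene means, and 13 of these had the sign of the probe set used.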

Other observations

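Psme1, which encodes a subunit of the interferon-induced activator PA28, had its values spread over the tumours. It was 10.56, 10.11, 9.82 and 8.66 (log2) in Ca/Ca sarcomas 1, 2, 3 and 5 and 9.48 and 10.40 in the Ca/+ sarcomas, against 9.58 and 9.52 in the muscles (Ca/Ca, then Ca/+). Ca/Ca sarcoma 5 and Ca/+ sarcoma 1, the samples with the lowest Psmb8, Psmb9 and Psmb10, were also those below both muscles for Psme1. The difference between sarcomas and muscles was 0.29 (limma adjusted p = 0.689).

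The shuttle factors carry ubiquitin-tagged proteins to the proteasome, and 0 of the 5 measured passed the test. Ubqln2 differed by 0.52 (limma adjusted p = 0.0526) and Rad23b by 0.48, both higher in the sarcomas on this scale. Of 5 measured genes in a list of other 26S subunits and bound factors, among them the lid subunit Sem1 and the deubiquitinases Usp14 and Uchl5, 0 passed, and their differences ran between −0.39 and 0.33.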
